A study of Drosophila melanogaster with 4 samples.

Results

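The named loci of the heterochromatic and unplaced scaffolds of the dm3 genome build, called scaffold loci here, were followed across 4 lines of Drosophila melanogaster. Not every unplaced piece need be heterochromatin. A locus entered where its position was on 2LHet, 2RHet, 3LHet, 3RHet, XHet, YHet, U or Uextra and where it carried a single gene name other than a ribosomal protein name. This gave 164 loci of the 13866 in the files, with 135 distinct names. The same scaffolds held 290 loci in all, of which 108 had no name, 17 had joined names and 1 was a ribosomal protein gene. The lines are called tg1 (LU.10580.tg1), tg2 (LU.10580.tg2), hom (LU.10580hom) and CAG (LU.10580/CAG), and RNA depleted of ribosomal RNA was sequenced from pharate adults, the complete flies still inside the pupal case. The labels give no meaning for the line names, no sex and no number of animals per library, and the column of the CAG library is headed het in its file. All lines were kept on cornmeal food with yeast at 24 °C. Each line had 1 library, so no difference has a replicate check and no p-value was computed. Where 4 values follow each other without further words, they stand in the order CAG, hom, tg1, tg2.

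Heterochromatin is the condensed, repeat-rich DNA around the centromeres and along the Y chromosome. It carries methylated histone H3 and the protein HP1, and it silences most genes that are moved into it. Genes that belong there are nevertheless expressed, many of them essential, and they often have very long introns filled with transposon remnants. Assembling such DNA is difficult, so the build keeps pieces of known arm as Het scaffolds, joins unplaced pieces into U, and collects further unplaced sequence of lower quality in Uextra. Genes of the Y chromosome are needed for male fertility and are expressed mainly in developing sperm.

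Values are FPKM, fragments per kilobase of transcript scaled to library size, as deposited by the authors. Levels of different loci can be compared on this scale, with caution at very short loci. Loci on the autosomal Het scaffolds were above the usual level of named genes, and loci on the Y scaffold and on U were below it. The median of the mean over the 4 libraries was 43.0 FPKM on 2RHet over 18 loci, 31.6 on 2LHet over 3, 24.5 on 3LHet over 16 and 20.5 on 3RHet over 12. The 11829 single-name loci of the main arms had a median of 8.40 FPKM. XHet had 6.64 FPKM over 8 loci, U had 2.88 over 36 and YHet had 2.40 over 7. On Uextra 51 of 64 loci were listed at 0 in every library, which is 79.7%, against 2.75% of the main-arm loci. On the 6 Het scaffolds 1 of 64 loci was at 0 throughout. A value of 0 in such files can be a failed estimate, so it is given only as listed at 0. The loci of the Het scaffolds also spanned more DNA, with a median span of 16241 bases against 3802 on the main arms, and 46.9% of them spanned at least 20 kb against 16.5%.

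**Figure D1:**
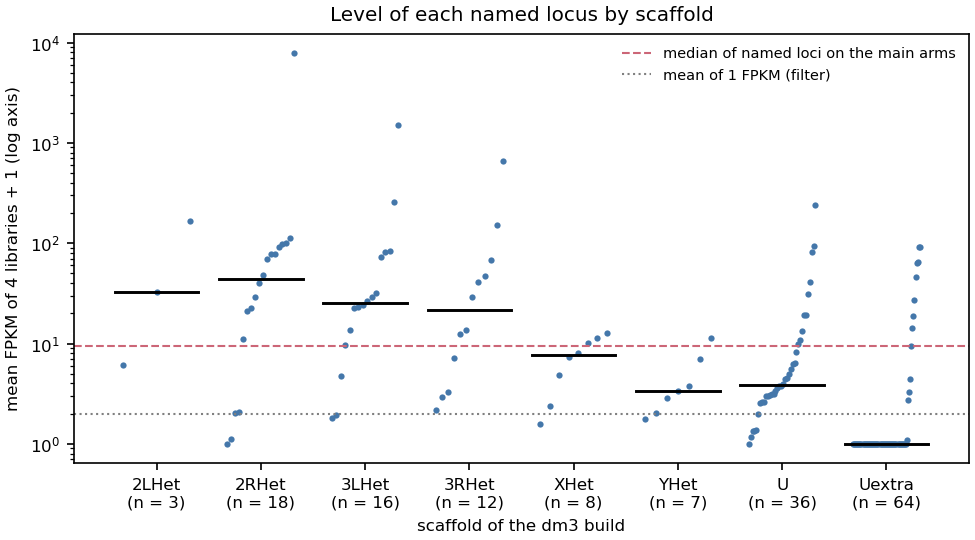
Mean FPKM over the 4 libraries plus 1, on a log axis, for each of the 164 named loci, by scaffold; black bars are medians. Loci of 2LHet, 2RHet, 3LHet and 3RHet lie mostly above the main-arm median of 8.40 FPKM (dashed), and most Uextra loci lie at 0.

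Differences between lines are given as log2(FPKM + 1), a scale on which low loci appear to differ less than they do. A mean of 1 FPKM or more over the libraries was required, which kept 101 of the 164 loci and left out 53 listed at 0 in every library and 10 others. A locus was called where a difference reached 1, a 2-fold difference. Most scaffold loci were higher in tg2 and in tg1 than in hom, by amounts mostly short of that call. On Uextra and XHet the median differences of tg2 from hom were near 0, with 7 of 12 and 5 of 7 loci above hom. Of the 101 loci 83 were above hom in tg2 and the median difference was 0.36, with quartiles at 0.05 and 0.71. Main-arm loci had a median of 0.0025 in the same pair, with 50.3% of them above hom. In tg1 79 loci were above hom with a median difference of 0.23, against −0.01 on the main arms. The comparisons of tg1 and tg2 share the hom library and are given side by side for that reason. In hom against CAG 33 of 101 loci, 32.7%, were above CAG, against 48.3% on the main arms, and the median difference was −0.10. In tg1 against tg2 37, or 36.6%, were above tg2, against 45.8% on the main arms, and the median was −0.12. Centring each library on its median took these medians to −0.056 and −0.055. tg2 held the highest value at 52 loci, 51.5% of them, against 30.1% of main-arm loci. Some of these 52 passed the filter through tg2 alone and are named below. hom held the lowest value at 50, 49.5% against 28.6%, and 6 loci had their highest value in hom. At 32 loci both held, with tg2 highest and hom lowest, 31.7% against 14.1% on the main arms. The whole range over the 4 libraries stayed under 1 at 80 loci, 79.2% against 90.3%.

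In tg2 against hom 13 loci were called higher and 1 lower, where 3.78% of all 11689 tested loci were called higher and 2.69% lower. In tg1 against hom 6 were called higher and 1 lower, against 1.82% and 1.72% of all loci. In hom against CAG 2 were called higher and 6 lower, against 1.87% and 3.43%. The lower share was 5.94% of the 101 loci but 3.45% of the 58 on Het scaffolds, near that of all loci. In tg1 against tg2 1 was called higher and 4 lower, against 1.33% and 1.98%. All tested loci lean towards lower calls in these last comparisons too, and their counts are given as a description of the loci named below. Among the loci called higher in tg2 than in hom, 6 of the 13 were listed at 0 in hom or another library. Without loci that have any 0 the count was 7, and with a pseudocount of 5 in place of 1 it was 3, when 1.5% of all tested loci were called higher. A locus can also pass the filter through 1 high library alone, and 7 of the 101 did, since the mean of their other 3 libraries was under 1 FPKM. The lower of the l(2)41Ab loci, CG42618, CG40249, CG40930 and Ory passed through tg2, RYa through CAG and CG42586 through hom. With the mean taken without the highest library, 94 loci were left and 9 were called higher in tg2 than in hom, against 3.27% of all loci kept in that way. The steps between low values put the depth of hom at 0.766 times that of CAG, a ratio seen at 71 of 237 low loci, and that of tg2 at 1.16 times, seen at 75 of 278. These depths are rough estimates.

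**Figure D2:**
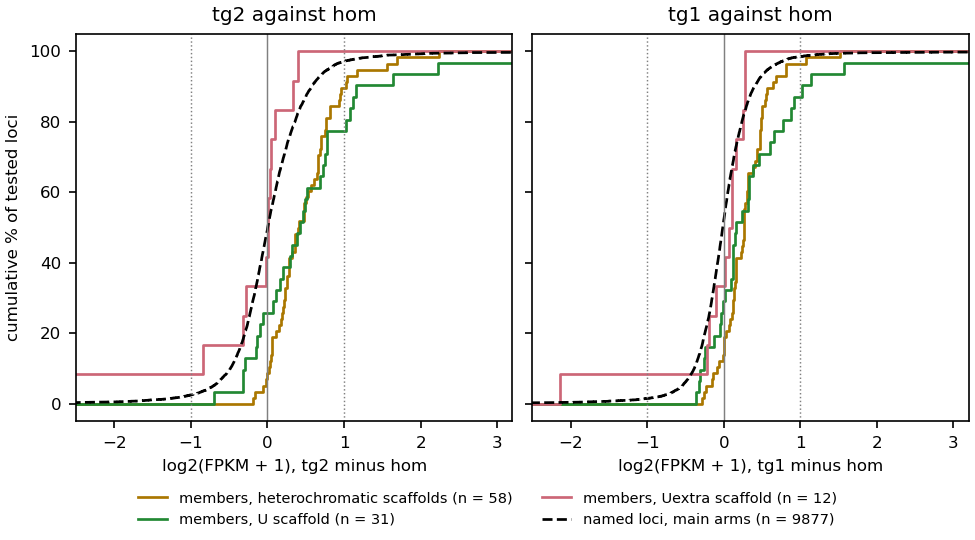
Cumulative share of tested loci by difference on the log2(FPKM + 1) scale, tg2 minus hom (left) and tg1 minus hom (right); dotted lines mark the call at −1 and 1. In the left panel the curves of the Het scaffolds and of U lie to the right of the main-arm curve. Their medians there are 0.41 and 0.42, and that of Uextra is 0.0077, near the main-arm median of 0.0025. In the right panel the medians are 0.26 for the Het scaffolds, 0.16 for U and 0.09 for Uextra, against −0.01 on the main arms.

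The shift was spread over scaffolds unevenly. In tg2 against hom the median difference was 0.59 over 16 loci of 2RHet, 0.46 over 14 of 3LHet, 0.32 over 12 of 3RHet and 0.68 over 6 of YHet. All 14 loci of 3LHet and all 6 of YHet were above hom in tg2. The median was 0.28 over 3 loci of 2LHet and 0.04 over 7 of XHet, where tg1 against hom had 0.01. su(f) on XHet, which encodes a factor of messenger RNA 3′ end formation, had 6.46 FPKM in CAG and 6.23 in hom, with 6.28 in tg1 and 6.21 in tg2. That was the smallest range of the tested loci on Het scaffolds, 0.05 on the log2 scale. ATbp had the widest range of the tested loci of XHet, 0.48, with 1.70, 0.936, 1.62 and 1.36 FPKM. On Uextra, where 11 of the 12 tested loci are histone genes, tg2 was highest at 1 locus.

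**Figure D3:**
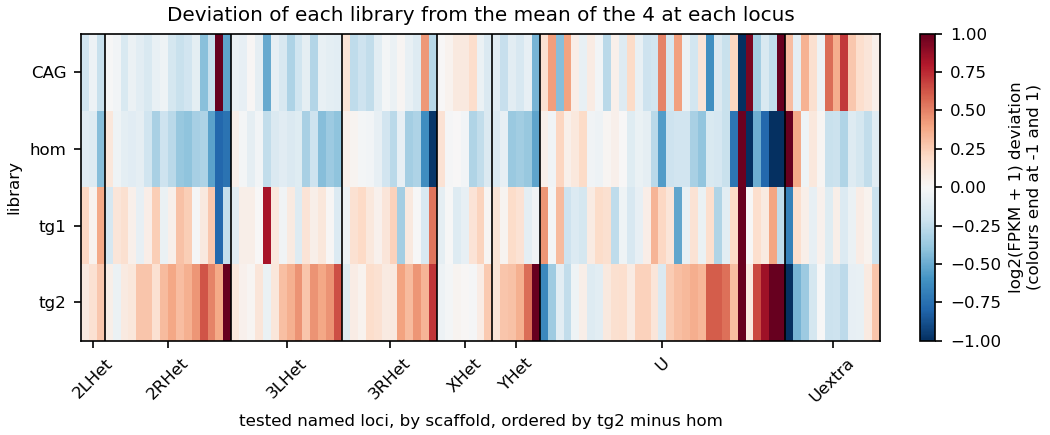
Each column is 1 of the 101 tested loci, grouped by scaffold, and each row a library; colour is the deviation from the mean of the 4 libraries on the log2(FPKM + 1) scale. Red prevails in the tg2 row, where 52 loci have their highest value, and blue in the hom row, where 50 have their lowest; on XHet and on Uextra tg2 is highest at 1 locus each.

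Loci of other regions that border on heterochromatin were set beside these, chosen after the pattern had been seen. The 78 tested named loci of chromosome 4, a small chromosome largely packed as heterochromatin, had a median difference of 0.35 in tg2 against hom, with 68 above hom, and 0.31 in tg1 against hom, with 73 above. The 157 tested named loci within 1 Mb of the centromere end of the sequenced main arms had medians of 0.12 and 0.02. Loci with tg2 highest and hom lowest were 50% of those on chromosome 4 and 22.3% of those near the centromere end, beside 31.7% of scaffold loci. Span went with the difference on the main arms too, where loci of at least 20 kb had a median of 0.14 in tg2 against hom and shorter loci −0.02. Scaffold loci had 0.38 over 44 long loci and 0.32 over 57 shorter ones. These 44 include the 11 tested histone loci of Uextra, listed with spans of 124999 to 949760 bases. Several histone names share such a span, so it is not the length of a gene. Long and shorter scaffold loci are therefore not simply long and short genes. The order with tg2 highest and hom lowest held at 43.2% of long and 22.8% of shorter scaffold loci. On the main arms it held at 24.9% and 11.9%. In tg1 against hom the 44 long scaffold loci had 0.27 and the shorter ones 0.14, and on the main arms long loci had 0.06 and shorter ones −0.03. In hom against CAG long scaffold loci had −0.17 and shorter ones −0.03, beside −0.11 and 0.01 on the main arms. The part of span in these differences was not tested. In tg2 against hom the median was 0.32 over the 55 scaffold loci whose mean reached 10 FPKM, against −0.0039 for main-arm loci at that level. In whole animals fewer cells of a type and less RNA per cell cannot be told apart. All 8 neuron marker loci found under a single name were above hom in both tg lines, with medians of 0.67 in tg2 and 0.52 in tg1. The listed markers nSyb, Syt1, Syx1A, cac and ChAT had no such locus and were left out. The same holds for markers of the other cell type lists without a single-name locus. In tg2 2 of them were called (Rdl and VGlut), and their summed level was 219 FPKM in CAG, with 159.7 in hom, and 234 and 274 in tg1 and tg2. None of these markers was listed at 0, and their part in the shift was not tested.

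tg2 was also the highest library at most Y-linked loci. They made up 21 loci of 14 genes, of which 19 were tested, and 14 of these had their highest value in tg2. Among these 14, Ory and CG40930 passed the filter through tg2 alone, and both are also among those above hom given next. In tg2 against hom 17 of 19 were above hom with a median of 0.46, 2 were called higher and 0 lower, where 3.78% and 2.69% of all tested loci were. The 2 were kl-5 and CG42620, the latter against a listed 0 in hom. In tg1 against hom 13 were above with a median of 0.12. Levels were low, with a median of 2.73 FPKM over the tested Y loci.

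The male fertility genes kl-2, kl-3 and kl-5 encode dynein heavy chains, the motors of the sperm tail. kl-5 (YHet, 311 to 33413) gave 6.43 FPKM in CAG and 6.09 in hom, against 8.97 in tg1 and 19.9 in tg2. tg2 stood more than 1 above each of the other libraries, by 1.56 against hom, and tg1 minus tg2 was −1.07. kl-3 (YHet, 34290 to 65839) had 2.16, 2.51, 2.78 and 3.49 FPKM, and kl-2 (81209 to 148249) had 1.61, 1.57, 2.08 and 2.08. At this kl-3 locus tg2 was again highest, and at kl-2 the tg lines were level.

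Phosphatase genes of the Y showed the same order at the top. Pp1-Y2 (YHet, 279995 to 291785), a catalytic subunit of protein phosphatase 1, had 5.45 FPKM in CAG and 4.24 in hom, with 5.36 in tg1 and 9.07 in tg2. Its relative Pp1-Y1, on U, had 2.29, 2.24, 1.96 and 4.53. Neither reached the call against hom, with 0.94 and 0.77. Ppr-Y had 1.99, 1.63, 2.69 and 3.28 FPKM, and ORY, a gene for a coiled-coil protein listed as Ory, had 0.853, 0.540, 1.26 and 1.43. ARY, an aldehyde reductase gene known as Y-linked although the build keeps it on 3LHet, had 6.63, 7.10, 8.76 and 11.8. FDY, listed as CG41503 and below the filter, had 0.745, 0.880, 0.605 and 0.862.

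Other Y loci were mixed. CG40530, a pseudogene of the Mst77Y family of sperm chromatin proteins, had 11.6, 11.7, 11.6 and 14.6 FPKM. The 3 loci now assigned to PRY split. CG41367 was lowest in tg2, with 1.302 FPKM against 2.93 in CAG. CG42619 was lowest in tg1, with 0.783, and so was CG40930, with 0.670. Of the WDY loci, CG41020 was lowest in CAG, with 1.48 FPKM against 3.13 in tg1, and CG40551 was highest in tg2, with 2.70 against 1.69 in hom. CG42620, a piece of 156 bases now assigned to the coiled-coil gene CCY, had 43.1 FPKM in CAG, with 10.4 in tg1 and 66.9 in tg2 and was listed at 0 in hom. No fold is given against that 0. A pair of longer loci, CG40948 and CG40968, carry names shared by CCY and a pseudogene. CG40948 had 3.16, 1.68, 3.90 and 7.31 FPKM, and CG40968 had 5.14, 4.60, 5.08 and 6.99, so both were also highest in tg2 and lowest in hom, and CG40948 was called in that pair at 1.63. CG40245 and CG40583 carry names shared by WDY and a pseudogene. CG40245 had 5.22, 1.98, 4.08 and 2.99 FPKM and was called lower in hom than in CAG, at −1.06, and CG40583 had 2.80, 2.61, 4.48 and 3.73.

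Testis genes on the autosomes were mostly above hom in tg2 but not in tg1. Of the 21 tested testis marker loci 17 were above hom in tg2, with a median difference of 0.27, and no call was made in any of the pairs. In tg1 against hom 12 of the 21 were below hom, with a median of −0.02. Their summed level was 2158 FPKM in CAG, with 2123 in hom, and 2414 and 3098 in tg1 and tg2, a sum that the most abundant of them dominate. None was listed at 0, and their part in the Y-linked values was not tested. The sperm tail gene dj had 105.9, 101.8, 145 and 194 FPKM in these libraries, a rise in both tg lines that most of these markers did not share. Another of them, sa, had 6.20, 6.67, 4.28 and 5.97 FPKM, and 4 of the 21 were below hom in tg2.

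**Figure D4:**
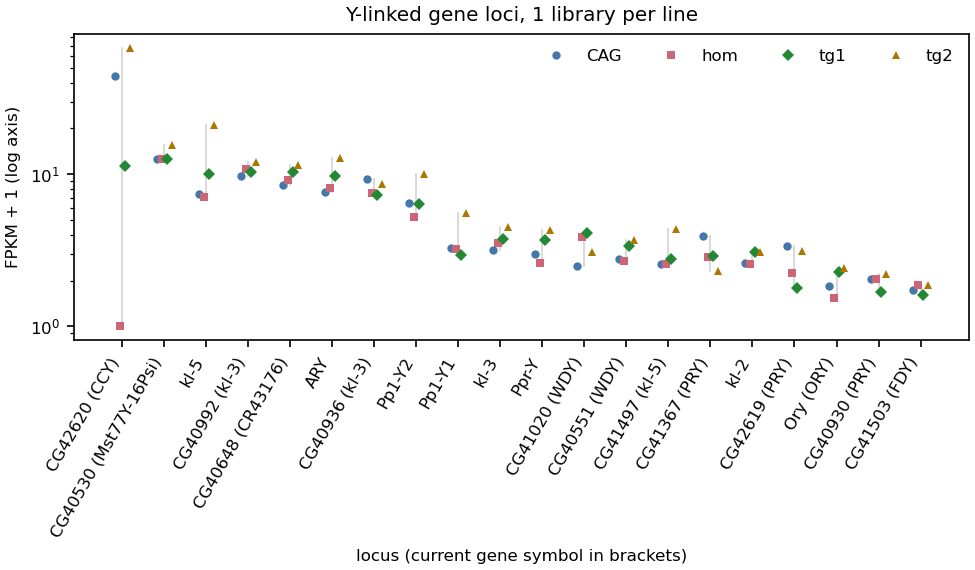
FPKM plus 1 on a log axis for 20 Y-linked loci in each library, ordered by mean level; a locus listed at 0 in all libraries is left out. tg2 (triangles) is highest at kl-5 with 19.9 FPKM and at 14 of the 19 tested loci, and hom (squares) is at 0 for CG42620. Ory and CG40930, among these 14, passed the filter through tg2 alone.

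Genes of signalling, nerve cells and membranes were gathered by role after their values had been seen, so their count is a description. Over 18 loci of 10 such genes 8 were called higher in tg2 than in hom and 0 lower, where 3.78% of all tested loci were called higher, all 18 were above hom, and the median difference was 0.89. Of the 8 calls 3 were pieces of the myosin gene Myo81F and 2 were pieces of Pzl, and 4 were at loci listed at 0 in some library. Both Pzl pieces passed the filter through tg2 alone, so their being kept and their calls in this pair both rest on the tg2 value. RYa, also called, passed the filter through CAG alone. The neuron markers had medians of 0.67 in this pair and 0.52 in tg1 against hom, and their part in these values was not tested. In tg1 17 of the 18 loci were above hom, with a median of 0.51, and 4 were called higher, where 1.82% of all tested loci were. hom minus CAG had a median of −0.26, with 1 called higher and 3 lower, where 1.87% and 3.43% of all tested loci were. A shorter list of signalling and transport genes, which includes the helicase gene Dbp80 and the repair gene Parp, had 14 loci. Its median was 0.56 in tg2 against hom, and 5 were called higher, where 3.78% of all tested loci were. These 5 were the Myo81F and Pzl pieces called above.

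rl, the ERK-type MAP kinase that carries growth factor signals, varied little. It spans 136397 bases of 2RHet (198176 to 334572) and had 92.4 FPKM in CAG and 88.9 in hom, against 99.9 in tg1 and 104.1 in tg2. The lowest library was again hom and the highest tg2, at a difference of 0.23. uex, a magnesium transporter gene, was highest in tg1 with 109.8 FPKM and lowest in CAG with 88.4. CG17684, in the shorter list and without a role given here, had 25.8, 26.1, 26.2 and 33.8 FPKM.

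Genes of neuronal membranes differed more. dpr21, an immunoglobulin-domain gene of the dpr family listed as CG42596, had 33.4 FPKM in CAG and 28.8 in hom, with 45.7 in tg1 and 49.3 in tg2. lovit, a transporter gene of photoreceptor synapses, lay at 3 loci, each lowest in hom and highest in tg2. CG41343 had 22.7, 18.2, 22.2 and 38.7 FPKM and was called higher in tg2 than in hom by 1.04. CG40467 had 21.7, 16.9, 24.9 and 30.4, and CG41087, on U, had 19.7, 13.4, 17.0 and 22.8. MFS17, of the major facilitator family of transporters, had 60.7, 58.7, 70.7 and 81.8.

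Hormone genes were low and had wide differences. Gpa2 and Gpb5 encode the subunits of a glycoprotein hormone related to thyrostimulin of vertebrates. Gpa2, on U (2295516 to 2295999), had 5.47 FPKM in CAG, with 0.649 in hom, and 2.35 and 2.58 in tg1 and tg2. hom stood below each of the other libraries by more than 1, and the difference from CAG was −1.97. Gpb5 (2LHet, 167248 to 167979) had 4.08, 3.40, 6.71 and 6.13 FPKM, so its lowest library was also hom, but without a call. RYa, the RYamide neuropeptide gene listed as CG40733, had 2.93 FPKM in CAG and 1.25 in tg2 and was listed at 0 in hom and tg1. It passed the filter through CAG alone. With a pseudocount of 5 neither Gpa2 nor RYa was called in any of these pairs.

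Several current genes lie in the build as pieces, most of them with names of their own. Outside the histones and the small RNAs, 10 genes had 2 or more of the loci, 27 in all. Pieces of 1 gene differed in level, and at some genes they shared the order of the lines while at others, such as PRY and WDY above, they did not. Pzl, a relative of the Piezo channels that sense mechanical force, had 5 loci, and their means ran from 1.18 to 6.13 FPKM. CG42617, the highest, had 8.24 FPKM in CAG and 3.44 in hom, against 5.17 in tg1 and 7.65 in tg2, and hom minus CAG was called at −1.06. CG40249 had 0.910 in CAG, 1.98 in tg1 and 3.67 in tg2, CG42618 had 0.624, 1.86 and 2.23, and both were listed at 0 in hom. Both passed the filter through tg2 alone. CG41056 had 1.89, 1.57, 2.18 and 2.11 in the 4 libraries. hom was thus lowest at 4 of the 5 pieces, and at the remaining one, CG40188, the lowest was CAG, with 1.09 FPKM against 1.55 in hom.

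Myo81F, an unconventional myosin gene, gave pieces that differed in their order. CG42622, of 117 bases, was listed at 0 in CAG and had 70.1 FPKM in hom, 156 in tg1 and 149 in tg2. CG41518 had 3.15 FPKM in CAG and 2.75 in hom, with 4.93 in tg1 and 7.34 in tg2, and CG41527 had 2.38, 0.771, 2.35 and 2.62. All 3 were called higher in tg2 than in hom, by 1.08, 1.15 and 1.03. The 0 of CAG was seen at the shortest piece alone. That piece had a mean of 93.7 FPKM, beside 4.54 at CG41518 and 2.03 at CG41527, so its level is uncertain. kl-3 had pieces with means from 2.73 to 9.73 FPKM, and its differences between tg2 and hom lay between 0.16 and 0.36. Its piece CG40936 was highest in CAG, with 8.31, 6.504, 6.30 and 7.62 FPKM. The piece of kl-5 on U, CG41497, had 1.56, 1.56, 1.78 and 3.37 FPKM and was again highest in tg2. When the loci of each gene were averaged the 101 loci became 81 genes, and 8 rather than 13 were called higher in tg2 than in hom.

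l(2)41Ab had 2 loci with the same span (2RHet, 476025 to 570672). One had 7.003 FPKM in CAG, with 7.62 in hom, and 10.5 and 15.5 in tg1 and tg2. The other had 0.154, 0.410 and 3.74 in CAG, tg1 and tg2 and was listed at 0 in hom, and tg2 stood apart from all others there. This locus passed the filter through tg2 alone, since its other 3 libraries had a mean of 0.188 FPKM. Its being kept, its call and its standing apart thus all rest on the tg2 value. Both were highest in tg2, but the labels do not say how fragments were divided between these 2.

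**Figure D5:**
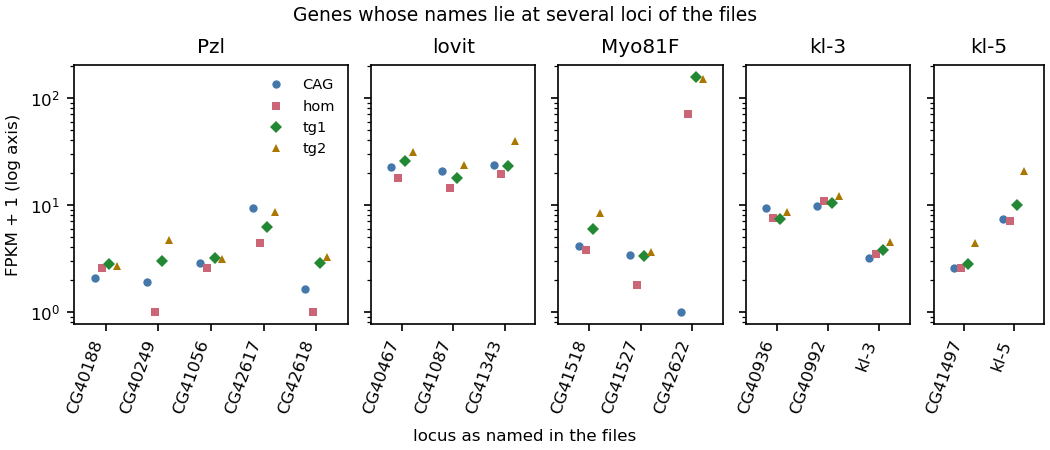
FPKM plus 1 on a log axis in each library at the separate loci of Pzl, lovit, Myo81F, kl-3 and kl-5. hom (squares) is lowest at all lovit pieces and at 4 of 5 Pzl pieces, and tg2 is highest at both kl-5 pieces, with 3.37 and 19.9 FPKM.

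Genes of chromatin, transcription and RNA handling lay at higher levels, with a median of 31.1 FPKM over 11 loci against 5.60 for the signalling and membrane loci. None of the 11 was called between hom and CAG, tg1 and hom, or tg2 and hom. In tg2 against hom 8 were above hom and the median was 0.15, with members between −0.70 and 0.77. A list of chromatin and RNA factors that also holds l(2)41Ab had 10 loci, a median of 0.51 in the same pair and 1 call. That call was at the lower l(2)41Ab locus, which passed the filter through tg2 alone. Haspin, the kinase that phosphorylates histone H3 in mitosis, had 19.9 FPKM in CAG and 16.7 in hom, against 21.0 in tg1 and 29.3 in tg2. Parp, the poly(ADP-ribose) polymerase gene, had 43.3, 36.04, 49.1 and 57.1, and Yeti, a chromatin protein gene, had 108, 96.2, 106 and 139. These 3 shared the order with hom lowest and tg2 highest.

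At others the differences were smaller or the order was another one. vtd, the cohesin subunit Rad21, had 29.0, 30.4, 31.1 and 33.9 FPKM. Set1, a histone H3 methyltransferase gene listed as CG40351, had 12.8, 11.9, 13.2 and 12.9, and the translation factor gene eIF-4B had 88.2, 87.1, 97.6 and 86.3. MED21, a Mediator subunit gene that shares its span with Set1, had 17.7, 19.9, 23.5 and 28.5, so its highest library was tg2 and that of Set1 was tg1. Dbp80, an RNA helicase gene, had 75.2, 72.0, 85.8 and 86.2, and scro, a homeobox gene, had 20.8, 22.5, 20.1 and 23.4. Maf1, a repressor of RNA polymerase III listed as CG40196, went against the group. It had 86.3 FPKM in CAG and 80.2 in hom, with 105 in tg1 and 49.1 in tg2, and tg1 minus tg2 was 1.08, the only call with tg1 above tg2.

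A mixed list of genes of heterochromatin formation and modifiers of variegation, all outside these scaffolds, had medians near 0. Of its 30 tested loci 14 were above hom in tg2 and 16 below, with a median of −0.01. In this pair 2 were called higher and 0 lower, where 3.78% and 2.69% of all loci were. In tg1 against hom the median was 0.03 with no call. The gene of HP1 had 20.6 FPKM in CAG, with 25.6 in hom, and 21.2 and 20.9 in tg1 and tg2. The H3 methyltransferase gene Su(var)3-9 had 46.1, 45.3, 44.9 and 40.4. The 2 called were piwi, a germline transposon repressor, with 3.97, 1.31, 2.51 and 5.65 FPKM, and HP6, an HP1-related gene, with 8.60, 4.83, 8.20 and 11.4. piwi was also the only one called in hom against CAG, at −1.11. Germline marker loci were above hom in tg2 at 8 of 10, with tud and gcl below, and 3 were called higher (osk, vas and zpg), where 3.78% of all loci were. In tg1 against hom 4 of the 10 were above hom, with a median of −0.03 and no call. Their summed level was 124, 101, 97.8 and 107 FPKM, a sum that tud dominates, with 70.6, 62.8, 61.1 and 60.6 FPKM. Of 13 tested accessory gland marker loci, 11 were called lower in hom when set against CAG, where 3.43% of all loci were. Against hom 4 were called higher in tg1, with a median of 0.70, and 2 in tg2, with a median of 0.42, where 1.82% and 3.78% of all loci were. The summed level of the gland loci was 1686, 399, 671 and 538 FPKM. Acp98AB, listed at 0 in hom and with 159.8 FPKM in CAG, was among the calls in each of these pairs. The part of these germline and gland values in the scaffold loci was not tested.

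Genes of muscle and of mitochondria included the most abundant loci. Scp1, a sarcoplasmic calcium-binding protein gene (2RHet, 1707796 to 1742372), gave 6548 FPKM in CAG and 5858 in hom, against 9367 in tg1 and 9461 in tg2. The tg lines were close to each other and both above CAG and hom, by 0.69 for tg2 against hom. zyd, a calcium exchanger gene listed as CG2893, had 11.2, 9.72, 13.9 and 12.3, and Alg-2, a calcium-binding protein gene, had 57.4, 65.3, 76.3 and 68.0.

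Ucrh, a respiratory complex III subunit, had 1288 FPKM in CAG and 1364 in hom, with 1358 in tg1 and 2022 in tg2. Its name is carried by a pair of current genes, and tg2 alone was high. ND-AGGG, a complex I subunit gene listed as CG40002, had 229, 236, 249 and 315 FPKM, again with tg2 highest. The import channel genes Tim23 (CG40042) and Tim17b (CG40451) had 161, 152, 170.4 and 185 FPKM and 143, 123, 175 and 159. BckdhB (CG17691), a subunit of the branched-chain amino acid dehydrogenase, had 235, 232, 273 and 222. None of these 5 mitochondrial loci was called in any of the pairs, and 4 were above hom in tg2, with a median of 0.36.

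Enzymes of lipid, sugar and steroid metabolism did not share an order. FASN3, a fatty acid synthase gene listed as CG17374, had 2.13 FPKM in CAG, with 2.73 in hom, and 6.84 and 3.22 in tg1 and tg2, and was called higher in tg1 than in hom by 1.07. spok, a cytochrome P450 gene of ecdysone synthesis, had 2.24, 2.03, 1.53 and 3.24. Gfat1, which feeds sugar into chitin precursors, was lowest in tg2, with 31.1, 29.1, 27.2 and 26.0. Of genes without a role given here, CG41128 was abundant, with 548, 638, 700.5 and 736 FPKM. CG40498 had 16.2, 12.9, 23.4 and 27.4 and was called higher in tg2 than in hom by 1.03. CG40472 had 66.0, 54.5, 71.2 and 96.7, at a difference of 0.82. l(3)80Fg, listed as CG40178, had 76.2, 64.5, 89.6 and 98.5, and l(3)80Fj, listed as CG17514, had 73.0, 61.1, 91.2 and 85.1. At these 5 loci hom was lowest except at CG41128, where CAG was. CG40191 on 2RHet went the other way and was highest in hom, with 76.4, 83.1, 68.1 and 80.1.

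Below the filter were 10 loci with some signal. Both loci of CG42598 on 3LHet had their lowest value in hom, at 0.233 FPKM each, against 0.720 and 1.26 in CAG and 1.29 and 1.13 in tg2. CG40635 and CG40801 on U were listed at 0 in CAG and hom and had 0.778 and 0.470 FPKM in tg1. At levels such as these single fragments decide the value, and no difference is read from them.

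Many Uextra loci carried names of genes that also lie elsewhere. Of the 30 loci of the snmRNA name series, small RNAs of the histone gene cluster, all were listed at 0 in every library, and 18 of them spanned 36 bases, less than a single read of 48 nt. Histone names covered 21 loci, 11 of them tested, with means from 2.32 to 90.9 FPKM. Histone genes are repeated in near-identical copies, so the values of single copies are uncertain. The highest were His2B:CG17949 at 12632816 to 13158574, with 102 FPKM in CAG and 80.0 in hom, against 95.5 in tg1 and 85.9 in tg2, and His3:CG33866, with 108.7, 82.2, 86.4 and 85.2. Both were among the 8 of 12 tested Uextra loci with their highest value in CAG. Only 1 histone locus was called, a second locus of His2B:CG17949 at 10026813 to 10299234, with 1.58 FPKM in hom against 4.17 in CAG. Centring each library on its median took this difference to −0.96, short of the call.

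The remaining tested Uextra locus was CG42586, which had 1.65 FPKM in CAG, 4.92 in hom and 0.345 in tg1 and was listed at 0 in tg2. It passed the filter through hom alone, since its other 3 libraries had a mean of 0.666 FPKM. That hom stood at least 1 above each of the others there, and that it was called lower in tg1 and in tg2 than in hom, rest on that value. The names Tsp42Eb, CG32640, CG31827, CG42585 and CG32821 were listed at 0 on Uextra and at 0 at their main-arm loci as well. Cyp12d1-p, a cytochrome P450 gene, was listed at 0 on Uextra and had 2.37, 2.46, 1.59 and 1.21 FPKM on arm 2R (7007610 to 7009353). Loci at which 1 library stood at least 1 apart from each of the other 3 numbered 6 of the 101, against 3.78% of all tested loci. They were kl-5 and l(2)41Ab with tg2 above, CG42586 with hom above, Gpa2 and CG42620 with hom below, and CG42622 with CAG below. Of these, l(2)41Ab passed the filter through tg2 alone and CG42586 through hom alone. CG42620 and CG42622 are pieces of only 156 and 117 bases, and their values are uncertain.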

How the data were processed

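RNA of 4 libraries, 1 per line, was read from the authors' deposited FPKM tables, whose unit is given in the file headers. Cufflinks, TopHat, bedtools and SAMtools are listed with the build dm3 in the submitters' processing notes, with no version. For the annotation, for reads that map to several places, which matter most in repeats, and for strand, settings are not stated in the labels or file headers. The total depth is unknown, and depth relative to CAG came from steps between values under 0.3 FPKM, as the most frequent ratio within 3%. No count test was run. Locus starts were taken as counted from 0 and moved by 1, because the span then equalled the RefSeq gene length at 964 of 9145 loci, against 98 otherwise. Names were matched to symbols and synonyms of RefSeq Release 6, a synonym only where it belonged to 1 gene; 158 of 164 loci matched, and no coordinate or sequence of that release was used. Python 3.11.15, numpy 2.4.6, pandas 2.3.3 and matplotlib 3.10.9 were used, and the calls were tested on simulated data. Members and lists were chosen with earlier results of these data known; the groups by role, the chromosome 4, centromere-end and span comparisons were chosen after the values had been seen. Named loci are the called ones, up to 10 per direction and pair, the 15 most abundant, those with a library standing apart, members of the lists, and the highest and most variable of each scaffold; others were named after their values had been seen. Alternatives were pseudocounts, filters, centring, averaging the loci of a gene, and leaving out loci with a 0, unplaced scaffolds or names that are not protein-coding.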

Additional observations from a re-analysis of the deposited data

How the results depend on the processing

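The counts of called loci are small and depend on the settings. Of 90 counts recomputed under alternatives, 47 stayed within 1.5 times the reported count. Of the 34 calls of single loci none reversed, 25 fell short of the call with a pseudocount of 5 and 3 after centring on library medians. The counts that moved by more were as follows. With a pseudocount of 0.1, hom against CAG had 10 lower, tg1 against hom 11 higher, tg2 against hom 2 lower, tg1 against tg2 3 higher and 7 lower, and 15 loci stood apart. Of all tested loci 5.01%, 3.27%, 3.51%, 2.04% and 3.29% were called in that order. The share of all loci standing apart was not recomputed under the alternatives. With a pseudocount of 5, hom against CAG had 1 higher and 1 lower, tg1 against hom 2 and 0, tg2 against hom 3 and 0, tg1 against tg2 1 lower, and 2 loci stood apart. Of all tested loci 0.96% were called higher and 1.62% lower in hom against CAG, and 0.63% and 0.92% in tg1 against hom. In tg2 against hom 1.5% and 1.42% were, and 0.75% were called lower in tg1 than in tg2. With a filter of 5 FPKM, hom against CAG had 1 higher and 2 lower, tg1 against hom 2 and 0, tg2 against hom 5 and 0, tg1 against tg2 2 lower, and 3 loci stood apart. This filter kept 68 scaffold loci. Of all loci kept in that way 1.67% were called higher and 2.7% lower in hom against CAG. In tg1 against hom 1.495% were called in each direction. In tg2 against hom 2.94% and 2.56% were, and 1.28% were called lower in tg1 than in tg2. Without loci that have a 0, hom against CAG had 0 higher, tg1 against hom 2 and 0, tg2 against hom 7 and 0, tg1 against tg2 1 lower, and 2 stood apart. In this setting and the next only scaffold loci were left out, so no matching share over all loci exists. Without U and Uextra, hom against CAG had 0 higher and 2 lower, tg1 against hom 2 and 0, tg2 against hom 6 and 0, tg1 against tg2 0 higher, and 2 stood apart. With loci of 1 gene averaged, tg2 against hom had 8 higher and tg1 against tg2 2 lower, and with the mean taken without the highest library, hom against CAG had 1 higher, tg1 against hom 0 lower, tg2 against hom 0 lower and tg1 against tg2 2 lower, both alternatives chosen after seeing the data. In the latter 1.74%, 1.57%, 2.52% and 1.54% of all loci kept were called in that order, and for averaged loci no such share was computed. These settings mostly test fewer loci or damp low values, and the cause was not tested further. The median difference of tg2 against hom ran from 0.05 without a filter, where loci listed at 0 enter, to 0.41 without U and Uextra, with 0.23 under a pseudocount of 5. That of tg1 against hom was 0.02 without a filter and 0.16 under a pseudocount of 5, against 0.23 as reported. That of tg1 against tg2 was −0.055 after centring, and it and that of hom against CAG were 0 without a filter. Without a filter tg2 was highest at 32.9% of loci and hom lowest at 31.7%. No paired analysis was possible because each line has 1 library.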

Other observations

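Maf1 (CG40196), BckdhB (CG17691) and CG41520 follow each other on U between 1091918 and 1369506, and all 3 had their lowest value in tg2, against 12 of 101 scaffold loci in all. U joins unplaced pieces, so loci next to each other on it need not be neighbours in the genome. CG41520 had 42.5 FPKM in CAG and 39.1 in hom, with 42.6 in tg1 and 36.6 in tg2. The next tested locus on U, CG41497, had its highest value in tg2. The gene klhl10, a ubiquitin ligase adaptor of spermatids, also on U, had 15.7 FPKM in CAG, with 14.1 in hom, and 19.8 and 23.2 in tg1 and tg2.

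CG41561, on U at 4051605 to 4053832, gave 2.87 FPKM in CAG and 4.34 in hom, against 5.65 in tg1 and 8.01 in tg2, and so was one of the loci with CAG rather than hom lowest. These loci were picked after their values had been seen.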
